A study of Mus musculus with 32 samples.

Results

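Notch pathway and secretory fate genes were followed across normal crypts and adenomas of mice that had or lacked the Wnt cofactors Bcl9, B9l, Pygo1 and Pygo2. The set held 10 genes, Atoh1, Hes1, Hey1, Dll1, Dll4, Jag1, Notch1, Notch2, Gfi1 and Hes6. Every probe in the deposited table of log2 values (the value table) whose platform annotation gave one of these symbols was taken. There were 9 such probes for 7 of the 10 genes (3 for Hes6 and 1 for each of the others), among 20824 probes (11484 gene symbols) in the value table. The array held 45281 probes, and those outside the value table were not searched for these genes. Atoh1, Dll4 and Notch2 had no probe of that name in the table and were not analysed here.

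Each of 32 RNA samples from C57BL/6J mice aged 120 days was hybridised to 1 MouseWG-6 v2.0 bead array from Illumina. Bcl9 and its paralogue B9l (Bcl9l) link the Pygo proteins to beta-catenin, and the ApcMin allele is a germline mutation that gives rise to intestinal adenomas. The adenoma groups were QKO (ApcMin/+ with LoxP-flanked Bcl9, B9l and Pygo2 alleles, a Pygo1 null background and villin.Cre, n = 3), Bcl9/B9l DKO (ApcMin/+ with LoxP-flanked Bcl9 and B9l and villin.Cre, n = 3), Pygo1/2 DKO (ApcMin/+, Pygo1-/-, LoxP-flanked Pygo2 and villin.Cre, n = 5) and ApcMin controls, which carried ApcMin/+ alone without the Cre (n = 9). Adenomas were excised, whereas crypts came from epithelium released with EDTA, of Bcl9/B9l DKO, Pygo1/2 DKO, villin.Cre/+ and wild-type (wt) mice without ApcMin (n = 3 each). The villin promoter limits the Cre to intestinal epithelium, so that stroma in an excised adenoma keeps LoxP-flanked alleles but lacks Pygo1 where that allele is null. Samples were often pooled from several RNA extractions of a mouse, per the study's methods, and the labels do not state that every array is a different mouse, so p-values cover the spread among these samples, which may be technical.

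In the intestine, Notch ligands such as Dll1, Dll4 and Jag1 on one cell activate Notch1 and Notch2 on its neighbour, and the cleaved receptor switches on repressors of the Hes and Hey families through RBPJ. Hes1 represses Atoh1, the factor that commits progenitors to the secretory lineages (goblet, Paneth, enteroendocrine and tuft cells), and Gfi1 acts below Atoh1 in goblet and Paneth cells. Secretory progenitors present Dll1, so that Notch signalling keeps most of their neighbours on the absorptive path. Hes6, in contrast to Hes1, is known to oppose Hes1 and to mark cells that differentiate.

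The 3 QKO adenomas and 3 of the 9 ApcMin control adenomas were labelled batch 2, and the other 26 arrays batch 1. Arrays of batch 2 were dimmer, with a mean bead intensity of 155.9 to 217, against 306.9 to 444.6 in batch 1, and they detected 14081 to 14666 probes, against 12913 to 16319. The mean log2 level of pancreatic acinar markers was 14.31 and 11.89 in Bcl9/B9l DKO adenomas 1 and 3, 6.50 in adenoma 2 of that group and 5.94 to 7.51 in the other arrays. Pygo2 was 1.14 ± 0.15 lower in Pygo1/2 DKO than in ApcMin adenomas on the log2 scale (estimate ± SE; limma, adjusted p = 0.00188), but only 0.36 ± 0.19 lower in QKO adenomas (adjusted p = 0.292), and no probe of Bcl9 or Bcl9l was called lower in either Bcl9/B9l-deleted adenoma group, so that the probes of the targeted genes alone do not settle the Bcl9/B9l DKO and QKO labels. Whether these probes fall within the deleted exons was not analysed here. Eif2s3y, a Y-linked gene, was detected in 0 of 5 Pygo1/2 DKO, 3 of 3 Bcl9/B9l DKO, 1 of 3 QKO and 1 of 9 ApcMin adenomas and in 12 of 12 crypt samples, so that sex cannot be told apart from tissue in adenomas against crypts or from genotype in Bcl9/B9l DKO against ApcMin or Pygo1/2 DKO adenomas.

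Levels below are log2 of background-corrected, quantile-normalised intensity over all 32 arrays, and are compared only within a probe. Changes are log2 differences ± SE with their 95% interval from a limma fit with a batch term, and a probe was called at a Benjamini-Hochberg adjusted p under 0.01 over all probes tested (under 0.05 in crypts). A probe counts as detected at a detection p under 0.01.

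**Figure D1:**
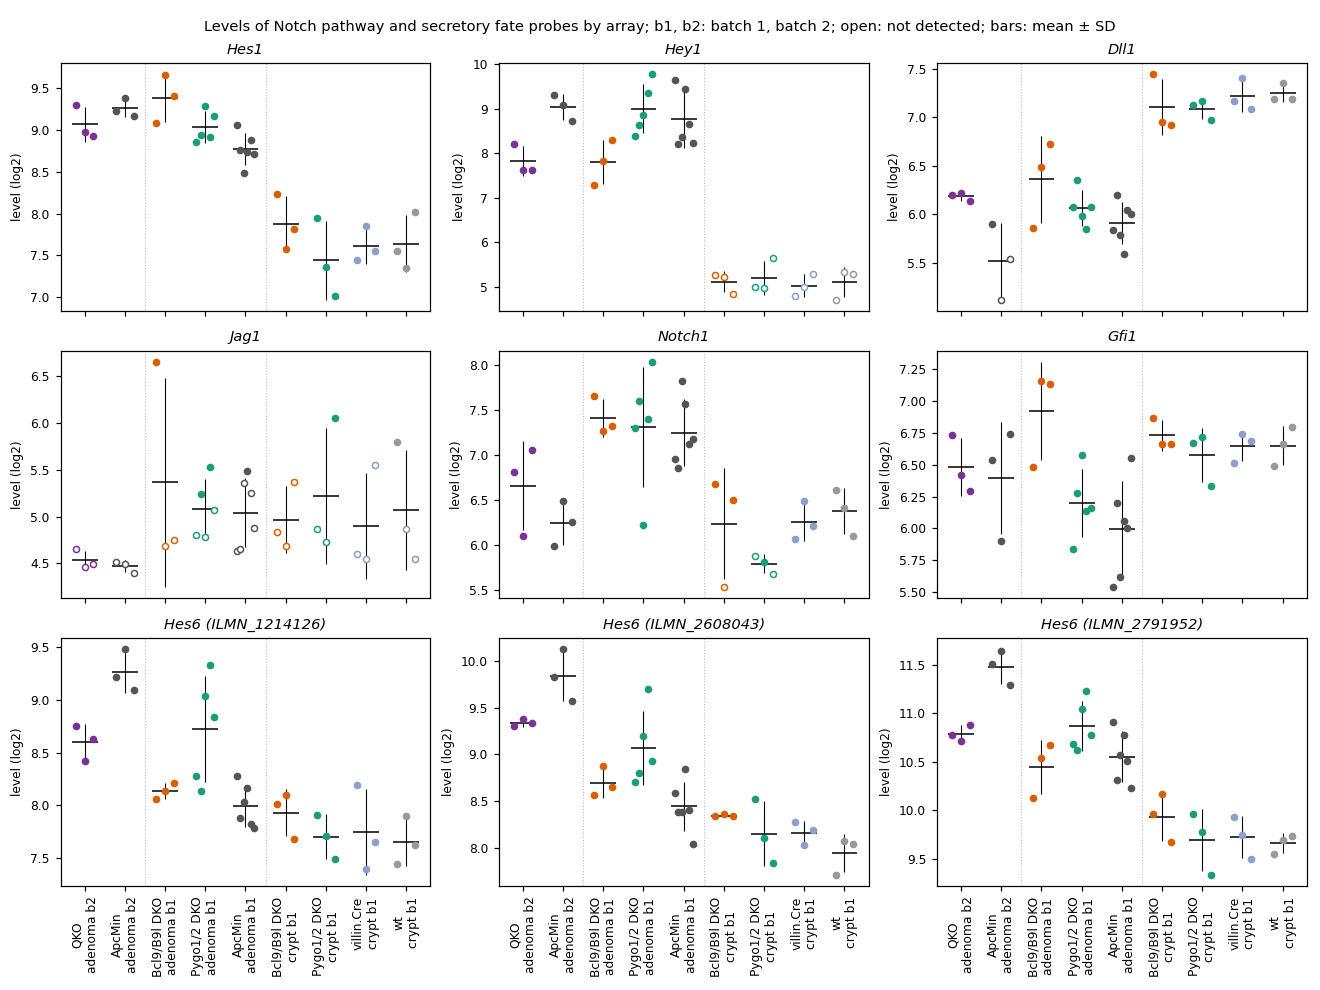
Level (log2, y axis) of the 9 probes in every array, with groups along the x axis, batch 2 (b2) adenomas first, then batch 1 (b1) adenomas and crypts. Filled points were detected and open points were not, and the bars give mean ± SD. Hey1 was undetected in all 12 crypt samples, and the 3 Hes6 probes sat higher in ApcMin adenomas of batch 2 than of batch 1.

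The first comparison asked how the pathway differed between ApcMin adenomas and wt crypts, with all 9 ApcMin adenomas in the fit. Of the 9 probes, 4 were called higher in adenomas (Hes1, Hey1, Notch1 and 1 probe of Hes6) and 1 was called lower (Dll1). That is 5 of 9 probes, in a comparison that called 38.3% of all 19002 probes tested, 18.4% higher and 20% lower. The median change of the 9 probes was 0.49, against -0.08 over all probes. Both Notch-responsive repressors were thus measured higher, and the ligand of the secretory progenitors lower. In tissue samples, fewer cells of a type and less RNA per cell cannot be told apart.

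Among the ligands, Dll1 (ILMN_2721188) had levels of 5.59, 5.92 and 6.20 (lowest, median and highest) in the 6 ApcMin adenomas of batch 1, against 7.19, 7.35 and 7.19 in the 3 wt crypt samples. Every batch 1 adenoma lay below every wt crypt sample, and all 12 crypt samples of the series were at 6.92 or above. The change was -1.32 ± 0.18 (-1.70 to -0.95, adjusted p = 3.62e-05), a 2.50-fold fall. Jag1 (ILMN_1257077) stayed near background, with detection in 1 of 6 ApcMin adenomas of batch 1 and 1 of 3 wt crypt samples. Its change was -0.03 ± 0.26 (-0.58 to 0.53, adjusted p = 0.933), an interval that leaves room for a change of either sign.

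The receptor Notch1 (ILMN_1241915) had levels of 6.85, 7.15 and 7.82 in ApcMin adenomas of batch 1 (lowest, median and highest), against 6.61, 6.41 and 6.10 in wt crypts. The groups did not overlap, and the change was 0.86 ± 0.21 (0.40 to 1.31, adjusted p = 0.00394). This call rested on the crypt samples included. Without wt crypt 2 the adjusted p was 0.0151 and without wt crypt 3 it was 0.0291, with a change of 0.87 and 0.71.

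Of the target genes, Hes1 (ILMN_1247691) had levels of 8.48, 8.75 and 9.06 in ApcMin adenomas of batch 1 (lowest, median and highest), against 7.55, 7.35 and 8.02 in wt crypts. The lowest adenoma was above the highest crypt sample, and the change was 1.11 ± 0.16 (0.77 to 1.46, adjusted p = 7.63e-05), or 2.16-fold. Hey1 (ILMN_2690596), best known as a Notch target of blood vessels, had levels of 8.21, 8.50 and 9.65 in the same adenomas, against 4.71, 5.33 and 5.28 in wt crypts. It was detected in all 20 adenomas and in none of the 12 crypt samples. Hey1 was at least 8.21-fold higher in ApcMin adenomas than in wt crypts, counted against the lowest signal of a detected probe (fitted change 3.61 ± 0.31, adjusted p = 7.81e-07).

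The factors of the secretory lineage were less uniform. Gfi1 (ILMN_2790382) had levels of 5.54, 6.03 and 6.55 in ApcMin adenomas of batch 1 (lowest, median and highest), against 6.49, 6.66 and 6.80 in wt crypts, with 1 adenoma inside the crypt range. Its change of -0.65 ± 0.23 (-1.14 to -0.16, adjusted p = 0.0278) was not called. The brightest Hes6 probe (ILMN_2791952) had levels of 10.23, 10.54 and 10.91 in these adenomas, against 9.55, 9.70 and 9.74 in wt crypts, with a change of 0.88 ± 0.16 (0.54 to 1.22, adjusted p = 0.000452). The other Hes6 probes had the same sign but were not called, at 0.49 ± 0.18 (ILMN_2608043, adjusted p = 0.0317) and 0.33 ± 0.15 (ILMN_1214126, adjusted p = 0.0849). The 3 Hes6 probes therefore share a sign and differ in size. Over the 9 probes, 4 lay wholly above and 1 wholly below the wt crypts in batch 1, where 47.3% of all probes tested did not overlap (22.7% above and 24.6% below).

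Markers of the cells around the epithelium moved with this comparison. Of 11 endothelial markers, 10 were called higher in ApcMin adenomas (median change 2.71), and their summed linear level was 2500 to 4320 in ApcMin adenomas of batch 1, against 167 to 199 in wt crypts, where 10 of the 11 were undetected, Pecam1 and Cdh5 among them. Fibroblast markers were called higher for 9 of 10 genes (median 4.03), and smooth muscle and pericyte markers for 8 of 8 (median 2.87). Within the epithelium, 7 of 12 enteroendocrine markers were called lower (median -1.27). Their summed level was 3720 to 5940 in ApcMin adenomas of batch 1, against 15700 to 16800 in wt crypts. The other secretory lists did not share this fall. Of 8 goblet markers, 1 was called higher and 0 lower (median 0.01). Of 7 Paneth markers, 2 were called higher and 1 lower (median -0.35), and of 5 tuft markers 1 higher and 1 lower (median 0.27). The part of these cells in the changes of Hey1, Notch1 and Dll1 was not tested.

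The start regions of Dll1, Notch1 and Hes6, the genes called between adenomas and crypts for which RefSeq promoters were given, are shown so that the regulatory sequence can be read beside the values. Each runs 5' to 3' from 250 bases before to 50 bases after the upstream-most start listed, on the minus strand of GRCm38.p6, with any CAGCTG in capitals, the E-box of proneural and other bHLH factors.
Dll1, chr17:15376883-15377182: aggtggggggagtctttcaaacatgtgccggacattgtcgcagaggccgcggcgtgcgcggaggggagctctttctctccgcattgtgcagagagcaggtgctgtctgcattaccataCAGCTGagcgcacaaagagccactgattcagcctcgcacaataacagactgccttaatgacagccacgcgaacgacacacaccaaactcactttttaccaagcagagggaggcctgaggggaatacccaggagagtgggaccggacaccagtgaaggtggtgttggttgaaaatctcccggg
Notch1, chr2:26503773-26504072: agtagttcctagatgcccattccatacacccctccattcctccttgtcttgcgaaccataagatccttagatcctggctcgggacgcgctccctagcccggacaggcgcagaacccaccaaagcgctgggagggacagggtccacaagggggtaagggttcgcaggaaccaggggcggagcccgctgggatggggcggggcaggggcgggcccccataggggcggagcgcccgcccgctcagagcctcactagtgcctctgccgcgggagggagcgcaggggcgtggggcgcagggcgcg
Hes6, chr1:91413989-91414288: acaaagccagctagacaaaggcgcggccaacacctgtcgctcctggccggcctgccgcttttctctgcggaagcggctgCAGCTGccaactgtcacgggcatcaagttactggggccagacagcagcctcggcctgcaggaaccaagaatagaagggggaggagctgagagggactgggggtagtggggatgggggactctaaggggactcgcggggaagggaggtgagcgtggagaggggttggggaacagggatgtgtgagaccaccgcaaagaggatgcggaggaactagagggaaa
Of the 10 genes, 8 had an entry, with 11 start sites in all. CAGCTG, which reads the same on both strands, occurred in 4 of the 11 windows (1 of Dll1, that of Jag1 and both of Hes6) and in 16.3% of 32851 RefSeq promoters of the same length. TGGGAA, the core of the site bound by RBPJ, occurred on neither strand of the 11 windows and in 25.6% of all promoters. CTTTGA, the core of the TCF/LEF site, occurred on either strand in 2 windows, of Atoh1 and Jag1, and in 16% of all promoters. These are matches of letters in a short window.

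The next comparisons asked whether loss of the Wnt cofactors altered these genes in adenomas. At the adjusted threshold of 0.01 none of the 9 probes was called in any of the 3 knockout groups. In QKO adenomas, limma called 4.41% of 19189 probes and 0 of the 9, with 5 of the 9 at an unadjusted p under 0.05 (23.9% of all probes) and 2 at an adjusted p under 0.05. In Bcl9/B9l DKO adenomas it called 2.27% of 18990 probes and 0 of the 9, with 3 at an unadjusted p under 0.05 (22.5% of all probes) and 2 at an adjusted p under 0.05. In Pygo1/2 DKO adenomas it called 0.181% of 19380 probes and 0 of the 9, with 2 at an unadjusted p under 0.05 (14.6% of all probes) and none at an adjusted p under 0.05. These comparisons share the ApcMin adenomas.

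**Figure D2:**
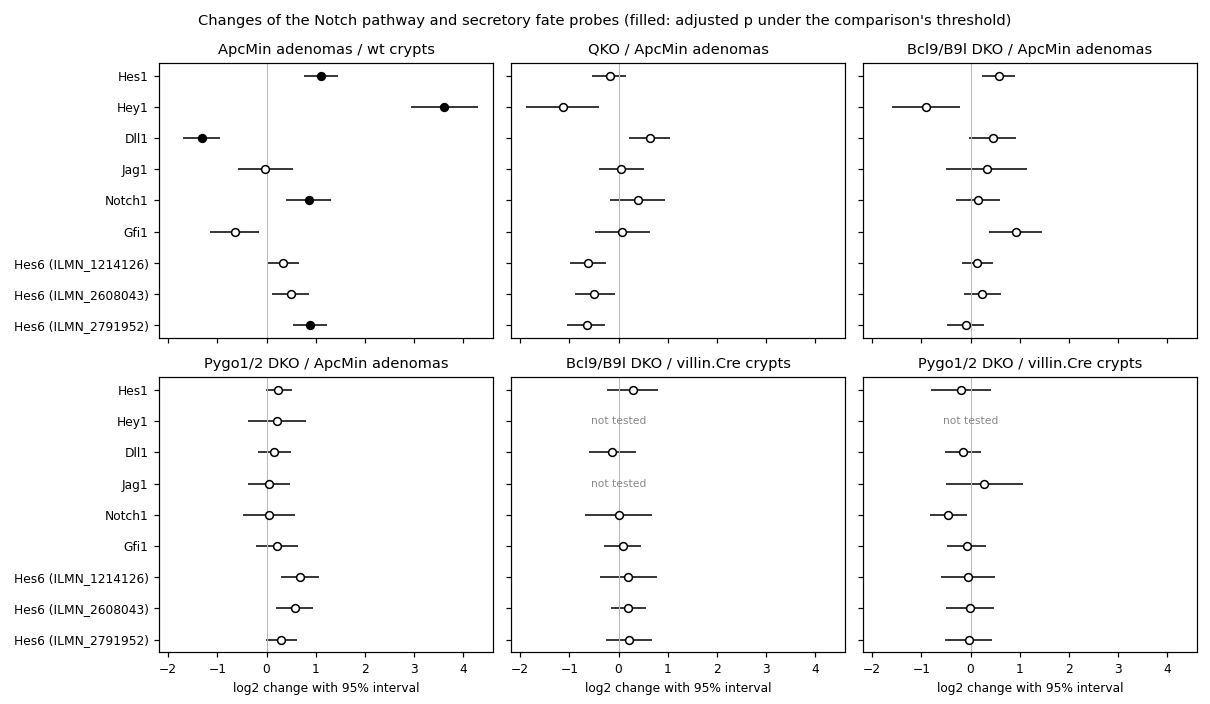
Log2 change (x axis) with its 95% interval for each of the 9 probes (y axis) in 6 comparisons, first group over second. Filled points passed the adjusted threshold (0.01, or 0.05 in crypts), and only the panel of ApcMin adenomas over wt crypts holds any, 5 of 9. Hey1 was not tested in crypts, and Jag1 not in Bcl9/B9l DKO crypts.

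In QKO adenomas, compared with the ApcMin adenomas of the same batch, Hes6 and Hey1 lay lower and Dll1 higher. The Hes6 probe ILMN_2791952 had levels of 10.78, 10.71 and 10.88 in QKO adenomas, against 11.51, 11.64 and 11.29 in ApcMin adenomas of batch 2. All 3 QKO adenomas were below all 3 controls for each of the 3 Hes6 probes. The changes were -0.65 ± 0.18 (-1.04 to -0.27, adjusted p = 0.0355) for ILMN_2791952, -0.62 ± 0.17 (adjusted p = 0.031) for ILMN_1214126 and -0.49 ± 0.19 (adjusted p = 0.127) for ILMN_2608043.

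Hey1 had levels of 8.21, 7.63 and 7.61 in QKO adenomas, against 9.30, 9.07 and 8.73 in ApcMin adenomas of batch 2. The groups did not overlap, and the change was -1.13 ± 0.34 (-1.87 to -0.39, adjusted p = 0.0525). Dll1 had levels of 6.20, 6.22 and 6.13 in QKO adenomas, against 5.90, 5.12 and 5.54 in ApcMin adenomas, of which 1 of 3 was detected. The change of Dll1 was 0.63 ± 0.19 (0.21 to 1.05, adjusted p = 0.0562). In all, 5 of the 9 probes did not overlap between these groups, in a comparison of 3 against 3 arrays of batch 2 where 33.3% of all probes did not. Of these, 1 was higher (18% of all probes) and 4 were lower (15.3%).

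Hes1 had levels of 9.30, 8.97 and 8.92 in QKO adenomas, against 9.23, 9.38 and 9.17 in ApcMin adenomas of batch 2, and its change of -0.18 ± 0.16 had an interval of -0.53 to 0.16. Notch1 had levels of 6.81, 6.10 and 7.05 in QKO adenomas, against 5.99, 6.48 and 6.25 in ApcMin adenomas (0.39 ± 0.26, -0.18 to 0.95). Gfi1 differed by 0.08 ± 0.26 (-0.47 to 0.63) with levels that overlapped throughout. Hes1, Notch1 and Gfi1 thus gave no change beyond the spread, and the intervals bound what could have been missed. Jag1 was detected in none of these 6 adenomas.

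Cell markers moved here as well. Of 10 fibroblast markers, 4 were called lower in QKO adenomas (median -1.03), with a summed level of 959 to 1610, against 2420 to 4520 in ApcMin adenomas of batch 2. Mast cell markers were called lower for 4 of 5 genes (median -3), with a summed level of 453 to 545, against 819 to 3150. None of 11 endothelial markers was called (median -0.46, summed level 1040 to 1300 in QKO adenomas and 1360 to 1660 in ApcMin adenomas). Of 6 Paneth markers tested, 0 were called (median 0.55), and of 5 tuft markers 1 was called lower (median 0.04). Goblet markers were called lower for 5 of 8 genes (median -0.99), and enteroendocrine markers higher for 3 of 12 (median 0.57). Their part in the levels of Hey1, Hes6 and Dll1 was not tested.

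In Bcl9/B9l DKO adenomas Hes1 and Gfi1 lay higher and Hey1 lower than in ApcMin adenomas, without passing the threshold. Hes1 had levels of 9.08, 9.65 and 9.40 in Bcl9/B9l DKO adenomas, against 8.48, 8.75 and 9.06 in ApcMin adenomas of batch 1 (lowest, median and highest). It was the only one of the 9 probes that did not overlap, where 11.7% of all probes did not, and its change was 0.58 ± 0.16 (0.24 to 0.91, adjusted p = 0.0442). Gfi1 had levels of 6.48, 7.16 and 7.13 in Bcl9/B9l DKO adenomas, against 5.54, 6.03 and 6.55 in ApcMin adenomas, a change of 0.92 ± 0.25 (0.37 to 1.46, adjusted p = 0.0476). The lowest of the 3 knockout adenomas fell inside the control range.

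Hey1 had levels of 7.29, 7.83 and 8.29 in Bcl9/B9l DKO adenomas, against 8.21, 8.50 and 9.65 in ApcMin adenomas of batch 1. The change was -0.90 ± 0.32 (-1.59 to -0.21, adjusted p = 0.115). Dll1 had levels of 5.86, 6.49 and 6.72 in Bcl9/B9l DKO adenomas, against 5.59, 5.92 and 6.20 in ApcMin adenomas (0.45 ± 0.22, -0.03 to 0.93, adjusted p = 0.25). Notch1 differed by 0.16 ± 0.21 (-0.29 to 0.60), and the 3 Hes6 probes by -0.10 to 0.24, each with groups that overlapped.

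Bcl9/B9l DKO adenoma 2, the array without raised acinar markers, had the highest Hes1 and Gfi1 levels of the 3. Leaving out adenomas 1 and 3, an alternative added after the data were seen, the change was 0.84 ± 0.22 for Hes1 (adjusted p = 0.0767), 1.13 ± 0.38 for Gfi1 (adjusted p = 0.143) and -0.87 ± 0.48 for Hey1 (adjusted p = 0.358). The signs of all 3 were kept, with a single knockout adenoma that is assumed to vary like the others. Of 11 endothelial markers, none was called in Bcl9/B9l DKO adenomas (median -0.30, summed level 2390 to 3140, against 2500 to 4320 in ApcMin adenomas of batch 1), and of 5 mast cell markers 4 were called lower. Their part in these levels was not tested. Jag1 was detected in 1 of 3 Bcl9/B9l DKO adenomas, adenoma 1 at 6.65, and was not above 4.75 in the other 2.

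In Pygo1/2 DKO adenomas all 9 changes were positive, with a median of 0.22 against 0.02 over all probes, and none was called. Of the 9 probes 3 belong to Hes6, and the share of all probes with a positive change was not counted. Hes6 came closest. ILMN_1214126 had levels of 8.28, 8.14, 9.04, 9.33 and 8.84 in Pygo1/2 DKO adenomas, against 7.78, 7.95 and 8.28 in ApcMin adenomas of batch 1 (lowest, median and highest). Adenomas 1 and 2 lay within the control range or at its edge and adenomas 3, 4 and 5 above it, and the change was 0.68 ± 0.19 (0.29 to 1.07, adjusted p = 0.0959).

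The other Hes6 probes differed by 0.58 ± 0.18 (ILMN_2608043, adjusted p = 0.144) and 0.30 ± 0.15 (ILMN_2791952, adjusted p = 0.368). Hes1 had levels of 8.86, 8.94, 9.29, 8.91 and 9.17 in Pygo1/2 DKO adenomas and differed by 0.24 ± 0.12 (-0.02 to 0.51, adjusted p = 0.377). Hey1 had levels of 8.39, 8.64, 8.85, 9.34 and 9.77 in Pygo1/2 DKO adenomas, a range like that of the controls, with a change of 0.22 ± 0.28 (-0.37 to 0.81). No probe was free of overlap between these groups, where 1.86% of all probes were. Dll1, Jag1, Notch1 and Gfi1 differed by 0.05 to 0.21.

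The knockouts were also set against each other. Hey1 was lower in every Bcl9/B9l DKO adenoma than in every Pygo1/2 DKO adenoma, with a change of -1.12 ± 0.31 (-1.81 to -0.43, adjusted p = 0.128), in a comparison that called 0.774% of 18737 probes and 0 of the 9 (2 of them at an unadjusted p under 0.05, as were 12.2% of all probes). The groups did not overlap for 9.38% of all probes. Gfi1 was 0.72 ± 0.23 higher in Bcl9/B9l DKO adenomas (adjusted p = 0.186), without a call. The change in QKO adenomas was also compared with the sum of the changes in both DKO groups, where limma called 0.188% of 20202 probes and 0 of the 9 (5 of them at an unadjusted p under 0.05, as were 13.6% of all probes). The Hes6 probes fell short of that sum by 1.44 ± 0.38 (ILMN_1214126, adjusted p = 0.0667), 1.30 ± 0.36 (ILMN_2608043, adjusted p = 0.0823) and 0.85 ± 0.32 (ILMN_2791952, adjusted p = 0.23), and Hes1 by 1.00 ± 0.29 (adjusted p = 0.0914). This sum bridges the 2 batches through the ApcMin adenomas alone.

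The ApcMin adenomas themselves differed between batches for several of these genes. The Hes6 probes were higher in batch 2 by 1.39 (ILMN_2608043), 1.27 (ILMN_1214126) and 0.92 (ILMN_2791952), with all 3 batch 2 adenomas above all 6 of batch 1. Hes1 was higher by 0.49 (9.26 ± 0.11 in batch 2 and 8.77 ± 0.19 in batch 1, SD), also without overlap. Notch1 was lower by 1.01 (6.24 ± 0.24 and 7.25 ± 0.37). Of 12029 probes detected in all 9 ApcMin adenomas, 32.9% did not overlap between the batches. For Hes6 and Notch1 these shifts exceed every change of the same probe between knockout and ApcMin adenomas, so that levels of QKO adenomas are comparable only with those of batch 2.

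In crypts without ApcMin the genes were nearly level between genotypes. Pygo1/2 DKO against villin.Cre crypts called 0.267% of 15375 probes and 0 of the 8 member probes tested, of which 1 had an unadjusted p under 0.05 (17.6% of all probes). Notch1 had levels of 5.88, 5.81 and 5.68 in Pygo1/2 DKO crypts, against 6.06, 6.48 and 6.21 in villin.Cre crypts, with detection in 1 of the 3 knockout samples. These groups did not overlap, as for 23.3% of all probes, and the change was -0.45 ± 0.17 (-0.83 to -0.07, adjusted p = 0.218).

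Bcl9/B9l DKO against villin.Cre crypts called 0.0381% of 15750 probes and 0 of the 7 tested, with changes between -0.13 and 0.29, and none had an unadjusted p under 0.05. The Hes6 probe ILMN_2608043 lay higher in all 3 knockout samples (0.20 ± 0.16, adjusted p = 1), the only one of these not to overlap, as for 9.27% of all probes. The Cre itself was checked in villin.Cre against wt crypts, where 0.0386% of 15528 probes and 0 of the 8 tested were called, none with an unadjusted p under 0.05, and changes ran between -0.15 and 0.23. None of the 8 was free of overlap, as 9.06% of all probes were. The change in adenomas did not differ by a called amount from that in crypts for any of the 9 probes. Limma called 0.0755% of 19859 probes for that difference in Pygo1/2 DKO and 0.488% of 19687 probes in Bcl9/B9l DKO, with 2 of the 9 at an unadjusted p under 0.05 in each (16.7% of all probes in Pygo1/2 DKO and 15% in Bcl9/B9l DKO). Hey1, 1 of the 2 in Bcl9/B9l DKO, was detected in no crypt sample, and Jag1 stayed near background in crypts. For these genes the fit cannot compare a change between the tissues.

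The wider pathway gives these members their setting. Of 49 further Notch genes, 35 had a probe in the value table. In ApcMin adenomas against wt crypts, 8 were called higher and 8 lower of 32 tested, where 38.3% of all probes were called, with a median change of 0.00 against -0.08 over all probes. The receptors Notch4 (1.75 ± 0.22, adjusted p = 2.27e-05), best known from endothelium, and Notch3 (1.15 ± 0.24, adjusted p = 0.00141), best known from vascular smooth muscle, were both higher in adenomas. Maml2, a coactivator of the RBPJ complex, was at least 2.04-fold higher (fitted change 2.02 ± 0.17, adjusted p = 4.95e-07).

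Lower in adenomas than in wt crypts were Olfm4 (-2.47 ± 0.53, adjusted p = 0.00157), a Notch-responsive gene of crypt base columnar cells, and Nrarp (-0.82 ± 0.14, adjusted p = 0.000319), which encodes a feedback inhibitor of the receptor. These Notch targets therefore ran opposite in sign to Hes1 and Hey1. Itch, a ubiquitin ligase acting on Notch, changed by -1.19 ± 0.16 (adjusted p = 5.09e-05). Neurl1a, a ubiquitin ligase of the ligands, changed by 1.28 ± 0.26 (adjusted p = 0.00106).

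**Figure D3:**
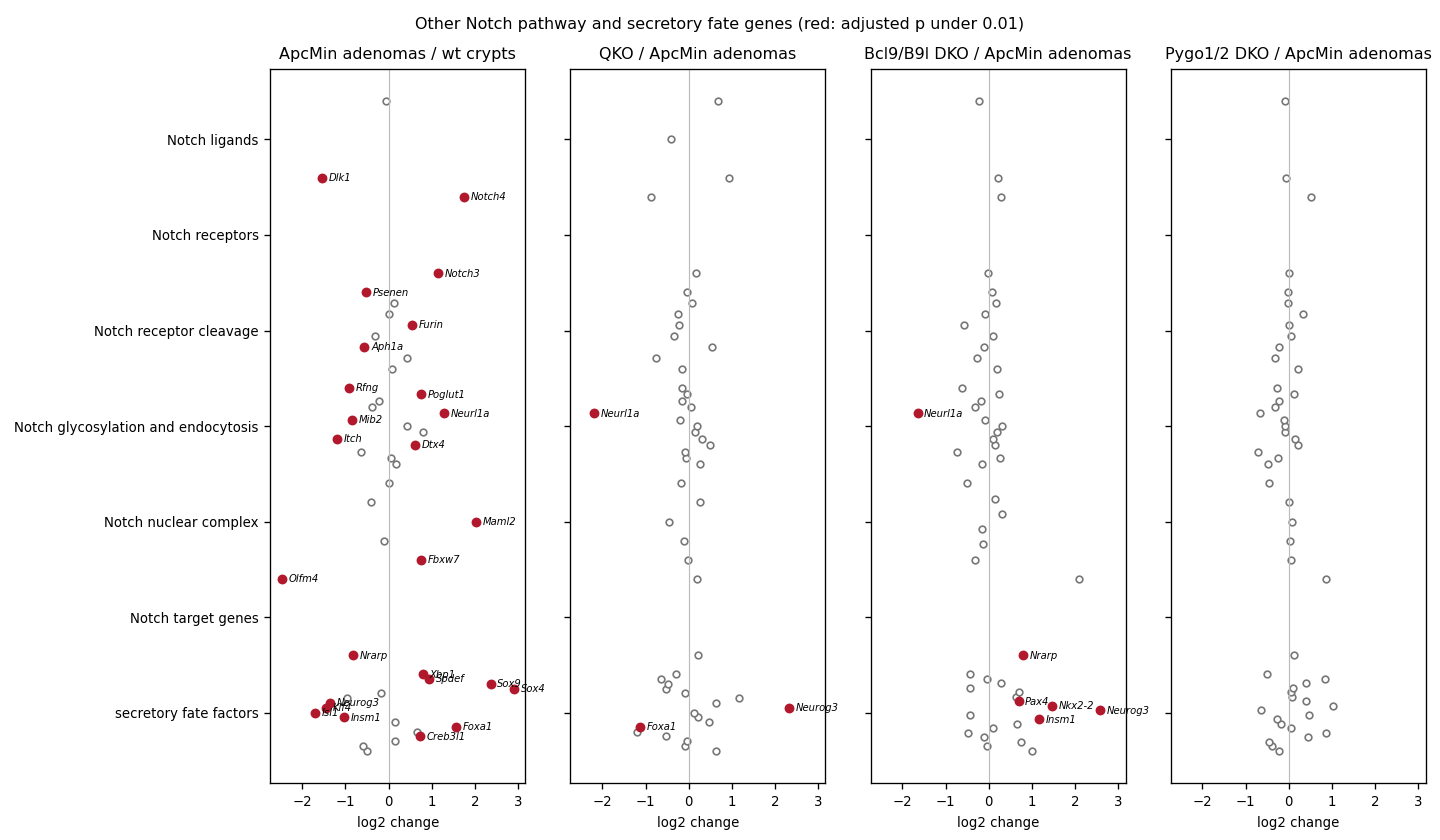
Log2 change (x axis) of the other Notch pathway and secretory fate genes, grouped by list (y axis), in 4 comparisons, first group over second. Each point is 1 gene, and red points with a name had an adjusted p under 0.01. Called genes are frequent in ApcMin adenomas over wt crypts and absent in Pygo1/2 DKO over ApcMin adenomas, and Neurog3 and Neurl1a are named in both the QKO and the Bcl9/B9l DKO panels.

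Of 24 further factors of secretory fate, 19 had a probe in the value table. In ApcMin adenomas against wt crypts, 6 were called higher and 4 lower of 17 tested, where 38.3% of all probes were called, with a median change of 0.15 against -0.08 over all probes. Sox4 (2.90 ± 0.20, adjusted p = 9.73e-08) and Sox9 (2.36 ± 0.20, adjusted p = 6.24e-07), which act in stem and progenitor cells too, were among the higher. Isl1, an enteroendocrine factor, was at least 1.96-fold lower (fitted change -1.71 ± 0.14, adjusted p = 5.78e-07). Foxa1, a factor of goblet and enteroendocrine differentiation, was higher (1.56 ± 0.16, adjusted p = 3.73e-06).

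Of the secretory factors, Neurog3 was called in both QKO and Bcl9/B9l DKO adenomas. Neurog3, which commits cells to the enteroendocrine branch, had levels of 8.21, 6.77 and 7.64 in QKO adenomas, against 4.86, 4.91 and 5.41 in ApcMin adenomas of batch 2, none of which was detected. Neurog3 was at least 3.63-fold higher (fitted change 2.33 ± 0.31, adjusted p = 0.000343). In Bcl9/B9l DKO adenomas Neurog3 had levels of 7.83, 7.98 and 8.18, against 4.85 to 5.83 in ApcMin adenomas of batch 1, a change of 2.57 ± 0.22 (adjusted p = 3.84e-05). In both comparisons every knockout adenoma lay above every ApcMin adenoma of its batch, and the 3 Bcl9/B9l DKO adenomas also lay above the wt crypts of batch 1 (6.89, 6.42 and 6.94). Pygo1/2 DKO adenomas had 7.13, 6.58, 6.29, 6.10 and 5.80, a change of 1.03 ± 0.24 (adjusted p = 0.0543) that was not called.

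In Bcl9/B9l DKO adenomas 4 of 18 tested secretory factors were called, where 2.27% of all probes were. All 4 were higher (median of the 18, 0.46, against 0.03 over all probes). Neurog3 was joined by Insm1 (1.16 ± 0.19, adjusted p = 0.0031), Nkx2-2 (at least 1.64-fold, adjusted p = 0.000658) and Pax4 (adjusted p = 0.00738), all enteroendocrine factors that pancreatic islets also use. Pax4 was near background, with detection in 1 of 3 Bcl9/B9l DKO adenomas and 0 of 6 ApcMin adenomas of batch 1, and no fold is given. Insm1 had levels of 6.35, 6.41 and 6.53 in these adenomas, against 5.03 to 5.53 in ApcMin adenomas of batch 1. Nkx2-2 was highest in adenoma 2, the array without raised acinar markers, at 6.59, against 5.73 and 5.87 in adenomas 1 and 3. With adenoma 2 as the only knockout array, Neurog3 (2.53 ± 0.36, adjusted p = 0.00677) and Nkx2-2 (adjusted p = 0.00241) stayed called, and the adjusted p was 0.0865 for Insm1 and 0.048 for Pax4. Of 12 enteroendocrine marker genes, 2 were called higher in Bcl9/B9l DKO adenomas (median 0.36), with a summed level of 6910 to 9150, against 3720 to 5940 in ApcMin adenomas of batch 1. Of 6 Paneth markers tested there, 0 were called (median 0.65). Of 8 goblet markers 1 was called lower (median -0.2), as was 1 of 5 tuft markers (median -0.28). None of 18 factors was called in Pygo1/2 DKO adenomas, where 0.181% of all probes were. Of 17 in QKO adenomas, where 4.41% of all probes were called, Neurog3 was called higher and Foxa1 lower (-1.12 ± 0.19, adjusted p = 0.00217). Without ApcMin adenoma 6, QKO adenoma 2 or QKO adenoma 3, the adjusted p of Foxa1 was 0.0132, 0.0107 and 0.0129. Insm1 and Pax4 were detected in 0 of 3 QKO adenomas and Nkx2-2 in 1 of 3, and none of them in the ApcMin adenomas of batch 2.

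**Figure D4:**
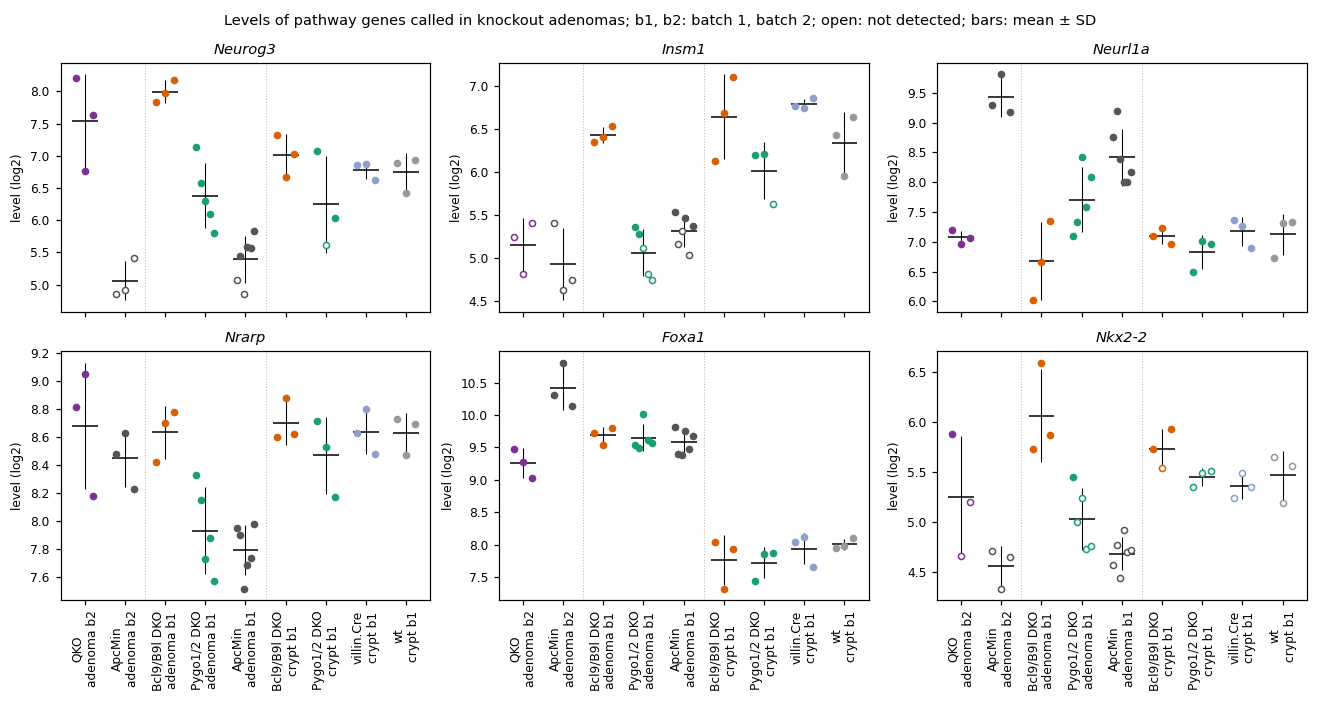
Level (log2, y axis) of 6 further pathway genes in every array, with groups along the x axis, batch 2 (b2) adenomas first. Filled points were detected and open points were not, and the bars give mean ± SD. Neurog3 sits above the ApcMin adenomas in all QKO and Bcl9/B9l DKO adenomas, and Neurl1a below them.

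Of the wider Notch genes, 1 of 33 was called in QKO adenomas and 2 of 33 in Bcl9/B9l DKO adenomas, with none of 32 in Pygo1/2 DKO adenomas, where the share of all probes called was 4.41% in QKO, 2.27% in Bcl9/B9l DKO and 0.181% in Pygo1/2 DKO. Neurl1a was lower in both. It had levels of 7.19, 6.97 and 7.07 in QKO adenomas, against 9.30, 9.81 and 9.18 in ApcMin adenomas of batch 2 (-2.20 ± 0.27, adjusted p = 0.000182, a 4.59-fold fall). In Bcl9/B9l DKO adenomas it had 6.03, 6.66 and 7.35, against 8.00 to 9.19 in ApcMin adenomas of batch 1 (-1.65 ± 0.30, adjusted p = 0.00565). Within batch 1, wt crypts had 6.73, 7.31 and 7.33, and the Bcl9/B9l DKO adenomas overlapped that range.

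Nrarp was called higher in Bcl9/B9l DKO adenomas, at 8.42, 8.70 and 8.78, against 7.52 to 7.98 in ApcMin adenomas of batch 1 (0.79 ± 0.15, adjusted p = 0.00711). With adenoma 2 as the only knockout array the changes were 0.85 for Nrarp (adjusted p = 0.0815) and -1.65 for Neurl1a (adjusted p = 0.0597). Several calls in Bcl9/B9l DKO adenomas depended on single arrays. Over the arrays left out in turn, the adjusted p ranged from 0.0085 to 0.0438 for Nrarp, 0.00427 to 0.0294 for Neurl1a and 4.91e-05 to 0.000349 for Neurog3. Neurog3 stayed called in all 12 of these fits, Neurl1a in 7 and Nrarp in 4. Insm1 lost its call without Bcl9/B9l DKO adenoma 2 (adjusted p = 0.0152) or 3 (0.0203), and Pax4 kept it in 1 of 11 fits. In QKO adenomas Neurl1a and Neurog3 stayed called in all 12. No gene of either list was called in crypts.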

How the data were processed

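The 32 samples gave 1 bead array each, in 2 labelled batches. The deposited tables hold, per the authors, a bead intensity on a linear scale and a detection p-value for each probe and array, exported from GenomeStudio 2011.1 without normalisation. The deposited log2 values, variance-stabilised and quantile-normalised by the authors, served only as an alternative. No column of the authors' own comparisons was used.

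Intensities were processed in R 4.3.3 with limma 3.58.1. The function neqc (offset 16, negative controls inferred from the detection p-values) was applied to the arrays of each comparison, and probes with a detection p under 0.01 in at least 1 array were kept. A model of group means with a batch term, where a comparison spanned both batches, was moderated with eBayes, and p-values were adjusted by Benjamini-Hochberg over all probes tested. Levels per array come from all 32 arrays normalised together. The largest difference between a change printed and its value on that scale was 0.1. Of the probes in the value table, 17608 had 1 gene symbol in the platform annotation, 9 had several and 3207 had none. Each of the 7 genes with a probe is described by all its probes in the value table. Up to 4 genes per list and comparison are named, those with the smallest adjusted p under the threshold. Values outside that rule (Neurog3 in Pygo1/2 DKO adenomas) were chosen after they were seen. The members and lists were chosen with earlier results of these data known. A lower bound sets the mean of the brighter group against, per array, the lowest signal of a detected probe or the probe's own level, whichever was higher. Where the lower group was detected in no array of the shared batch, the fold is given only as such a bound, and a fitted change printed beside it is not a measure of size. No pair of arrays was identical. Array number, 3 to 9 per group, limits the precision. The model was tested on simulated data. Alternatives covered background, offset, filter, deposited log2 values, joint fit, replicate block, batch handling and each array left out. Promoter sequences are those of RefSeq on GRCm38.p6.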

Additional observations from a re-analysis of the deposited data

Results flagged for a closer look

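For the member probes and the further genes with levels by array, 32 groups of 4 to 10 arrays were searched for an array far from its group, and 1 was found. Chance gives about 1 in 20. In the Pygo1/2 DKO adenomas, Foxa1 had a level of 10.01 in replicate 3, against 9.49 to 9.62 in the other 4, with a gap of 0.76 of the group's whole range.

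The change of Neurog3 between Bcl9/B9l DKO and control samples differed between tissues. The change in adenomas was 2.39 ± 0.31 above that in crypts on the log2 scale (SE, limma interaction, adjusted p = 0.000602). In adenomas the levels were 7.83, 7.98 and 8.18 in Bcl9/B9l DKO and 4.85 to 5.83 in ApcMin controls of batch 1, and in crypts they were 7.32, 6.67 and 7.03 in Bcl9/B9l DKO and 6.86, 6.87 and 6.62 in villin.Cre controls. This difference kept its call in each fit with an array left out (adjusted p 0.000344 to 0.00367). The ApcMin controls lacked the Cre that the crypt controls carried. Eif2s3y was detected in 3 of 3 Bcl9/B9l DKO and 1 of 9 ApcMin adenomas, and in every crypt sample. Sex and the Cre therefore cannot be told apart from genotype in Bcl9/B9l DKO against ApcMin adenomas. The Cre was also carried by the other knockout adenoma groups and cannot be told apart from genotype there. Acinar markers were raised in Bcl9/B9l DKO adenomas 1 and 3.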

How the results depend on the processing

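Of 1992 refitted values of single member probes, 1971 kept their side of the threshold, 14 passed it anew and 7 lost it. None that was called in either fit changed sign. Changes of sign among values called in neither fit were not counted. Jag1 in Bcl9/B9l DKO against ApcMin adenomas was 1, at 0.33 as reported and -0.38 with adenomas 1 and 3 left out. The number of the 9 probes called in ApcMin adenomas against wt crypts was 5 and ranged between 4 and 6 as arrays were left out. In every other comparison it was 0 in each such fit (lowest 0, highest 0). With the replicate block, 2 of the 9 stayed called against wt crypts (adjusted p 0.0172 for Hes1, 0.0776 for Notch1 and 0.0166 for the Hes6 probe). The labels do not say whether same-numbered arrays were paired. Deviations of such arrays correlated between -0.49 and 0.51, with 3 or 4 pairs in a comparison, too few to decide it. The replicate block lowered the calls over all probes to 3550 there (7283 without it), and to 0 in Bcl9/B9l DKO against ApcMin adenomas (431 without it), which also ended the calls of Neurog3, Insm1, Nkx2-2, Pax4, Nrarp and Neurl1a. No paired analysis was possible for QKO against ApcMin adenomas because they share no replicate number within their batch. In Bcl9/B9l DKO against ApcMin adenomas, 1 probe was called with all 32 arrays together (Gfi1, 0.93, adjusted p = 0.00251) and 1 with ComBat in place of the batch term (Hes1, 0.56, adjusted p = 0.00984). In QKO against ApcMin adenomas, 1 was called within batch 2 alone (Hey1, -1.10, adjusted p = 0.0096) and 4 with ComBat (Hey1, Dll1 and 2 of Hes6). Against the sum of both DKO changes, ComBat called 3 (Hes1 and 2 of Hes6). Gfi1 fell past the threshold in ApcMin adenomas against wt crypts with all arrays together (adjusted p = 0.00802), with ComBat (0.0091) and without ApcMin adenoma 9 (0.00924), and Notch1 missed it without a filter (0.0115) and with all arrays together (0.0118). Over all probes, counts of calls moved by over 1.5 times in 95 of 229 refits, between 9 and 239 in Pygo1/2 DKO (35 as reported), 0 and 1171 in Bcl9/B9l DKO (431) and 434 and 2983 in QKO adenomas (846). The cause was not tested. Signal near background limits Jag1, Dll1 in batch 2 and Hey1 in crypts.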

Other observations

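The genes whose levels ran most like those of each member over the 20 adenomas are given by Pearson's r, among up to 13042 named probes detected in 10 or more of them, with each batch's ApcMin mean subtracted. This is a description, since the arrays share batch and group. Hes1 ran most like Emp2 (0.91), Czib (0.90) and Ddx17 (0.88). Hey1 ran most like Zfp518b (0.89), Tpst1 (0.88) and Zdhhc8 (0.88). Dll1 ran most like Scn2b (0.88), Gadd45a (0.83) and Chga (0.83), which encodes a secretory granule protein of enteroendocrine cells. Gfi1 ran most like Elovl5 (0.83), and Hes6 (ILMN_2791952) like Mcrip1 (0.92) and Slc44a2 (0.92). Notch1 had the weakest such neighbours, with Fos at 0.75.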
